A study of Mus musculus with 88 samples.

Results

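Trim43a, Trim43b and Trim43c are 3 protein-coding genes of chromosome 9, and they were taken by symbol from 55364 annotated mouse genes in 25 RNA-seq libraries. They were chosen by their TPM in earlier results of these data, which stood high in embryonic stem (ES) cells given Obox genes and near 0 in ES cells given Dux. Their ES cell levels under Obox and Dux are therefore given as a description, without a test. The contrast behind that choice lies between ES libraries, and the differences between embryo groups were tested. Earlier results of these data were known by then, so the embryo tests may not be independent of the choice.

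TRIM proteins carry a RING finger, a B-box and a coiled coil, and many act as E3 ubiquitin ligases, enzymes that attach ubiquitin to other proteins. The Trim43 genes are known for transcription around zygotic genome activation, the stage at which the embryo begins to make its own RNA, and human TRIM43 is a target of DUX4. Dux, the mouse counterpart of DUX4, is a double-homeobox factor that switches on 2-cell-stage genes such as the Zscan4 cluster. The Obox genes encode homeobox proteins of oocytes and early embryos that are related to Crx and Otx factors, which recognise TAATCC.

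The ES cells were male, of wild-type genotype and of hybrid C57BL/6 / 129 background, and were grown with LIF, PD0325901 and CHIR99021. All of them were transfected with a plasmid. Groups of 2 libraries received Obox3, Obox5, Obox6, Dux or no insert (ES_Obox3, ES_Obox5, ES_Obox6, ES_Dux and ES_Empty). A further 9 constructs had 1 library each, namely Obox1, Obox2, Obox4ps27, Obox4ps35, Obox7, Obox8 and 3 labelled Crxos1, Crxos2 and Crxos3. The embryos were wild-type late 2-cell embryos cultured in KSOM. Embryos made by somatic cell nuclear transfer (SCNT), with cumulus cell nuclei of BDF1 background placed into enucleated oocytes, were injected with Obox3 mRNA (SCNT_Obox3_L2C) or with EGFP mRNA (SCNT_EGFP_L2C) at 10 ng/µl, and embryos from intracytoplasmic sperm injection (ICSI_L2C) were BDF1 x BDF1, with 2 libraries in each group. The labels do not give how many embryos were pooled, nor whether libraries of a group came from separate cultures or batches of embryos, so p-values measure the spread between these libraries, which may be technical. The other ES_Obox3, ES_Obox5 and ES_Dux library beside replicate 1 was matched to its group only and is called unnumbered. Values are TPM, transcripts per 1000000 transcripts, a level already divided by gene length.

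On build GRCm38.p6, a patch of mm10, RefSeq places Trim43a at bases 88580891 to 88588824 of chromosome 9, Trim43c at 88839164 to 88848190 and Trim43b at 89084624 to 89092835. Trim43a and Trim43c lie 250339 bases apart, and Trim43c and Trim43b 236433 bases apart. RefSeq's promoter table matched 1 of the 3 members, Trim43a, which is shown with the homeobox motif TAATCC in capitals; no window of Trim43b or Trim43c was examined. The window is chr9:88580641-88580940 on the plus strand, 250 bases before the gene start and 50 bases from it.
Trim43a promoter: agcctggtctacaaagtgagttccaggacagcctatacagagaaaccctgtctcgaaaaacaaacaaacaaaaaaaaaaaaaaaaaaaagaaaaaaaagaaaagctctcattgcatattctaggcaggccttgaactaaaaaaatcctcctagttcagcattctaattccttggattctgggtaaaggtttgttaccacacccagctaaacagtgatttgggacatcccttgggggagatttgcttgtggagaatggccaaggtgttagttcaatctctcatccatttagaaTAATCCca
TAATCC, searched on both strands, occurred once on the plus strand at bases 293 to 298 of the window, in the transcribed part. Of 32851 windows of the same length, 7.06% held this motif. The match describes letters in this window and is not a measured binding site.

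All 12 stem cell markers reached 1 TPM in every ES library, and all 10 oocyte markers did so in every embryo library. The stem cell markers differed in level, with sums of 2307 to 2674 TPM in ES_Empty and 949.3 to 1012 TPM in ES_Dux. Their sums were 1131 to 1485 TPM in ES_Obox3, 1596 to 1658 TPM in ES_Obox5 and 1672 to 1879 TPM in ES_Obox6. In embryo groups 8 to 9 of these 12 reached 1 TPM in both libraries. Each transfected gene stood between 933.3 and 8450 TPM in its own libraries, apart from Obox3, whose reads were spread over near-identical copies. Obox3 and its copies, 9 genes in all, summed to 521.7 and 320.3 TPM in ES_Obox3 and to 0 in both ES_Empty libraries. In embryos the same sum was 145.1 and 146.8 TPM in SCNT_Obox3_L2C, 14.0 and 34.4 TPM in SCNT_EGFP_L2C, and 696.6 and 560.4 TPM in ICSI_L2C. A read on a transcript of 1 kb was worth 0.136 to 0.441 TPM in ES libraries and 0.0718 to 0.198 TPM in embryo libraries. The TPM steps, with a length solved for each member from the same values, gave an estimate of the reads behind it. Reads of the members came partly in fractions, for Trim43a in 10 of 19 ES libraries and 6 of 6 embryo libraries, for Trim43b in 6 and 6 and for Trim43c in 8 and 5, so some reads had been split between features or places, and the split between these 3 related genes is uncertain.

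Trim43a was abundant in ES cells given Obox3, Obox5 or Obox6 and at most 1.81 TPM in every other ES library. It stood at 103.9 TPM in replicate 1 and 70.0 TPM in the unnumbered library of ES_Obox3, from 880.2 and 1024 reads. ES_Obox5 had 90.4 and 76.9 TPM, and ES_Obox6 had 74.7 and 63.6 TPM. In ES_Dux, by comparison, Trim43a had 0.427 and 0.353 TPM, from 6.0 and 3.5 reads. ES_Empty had 0.135 TPM from a single read in replicate 1 and 0 TPM in replicate 2, where a count of 0 allows up to 0.31 TPM. The 6 Obox3, Obox5 and Obox6 libraries did not overlap with any of the other 13 ES libraries, which ran from 0 to 1.81 TPM. The members were chosen for this contrast, and the share of all genes that separate these libraries was not counted. The separation, also of Trim43b and Trim43c below, is therefore a description and no result about the family. In means, ES_Obox3 (87.0 ± 24.0 TPM) was followed by ES_Obox5 (83.6 ± 9.53 TPM) and ES_Obox6 (69.2 ± 7.84 TPM; SD, n = 2 each). ES_Obox3 overlapped with ES_Obox5 and with ES_Obox6, and both ES_Obox6 libraries lay below both ES_Obox5 libraries, so the means do not order the single libraries.

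**Figure D1:**
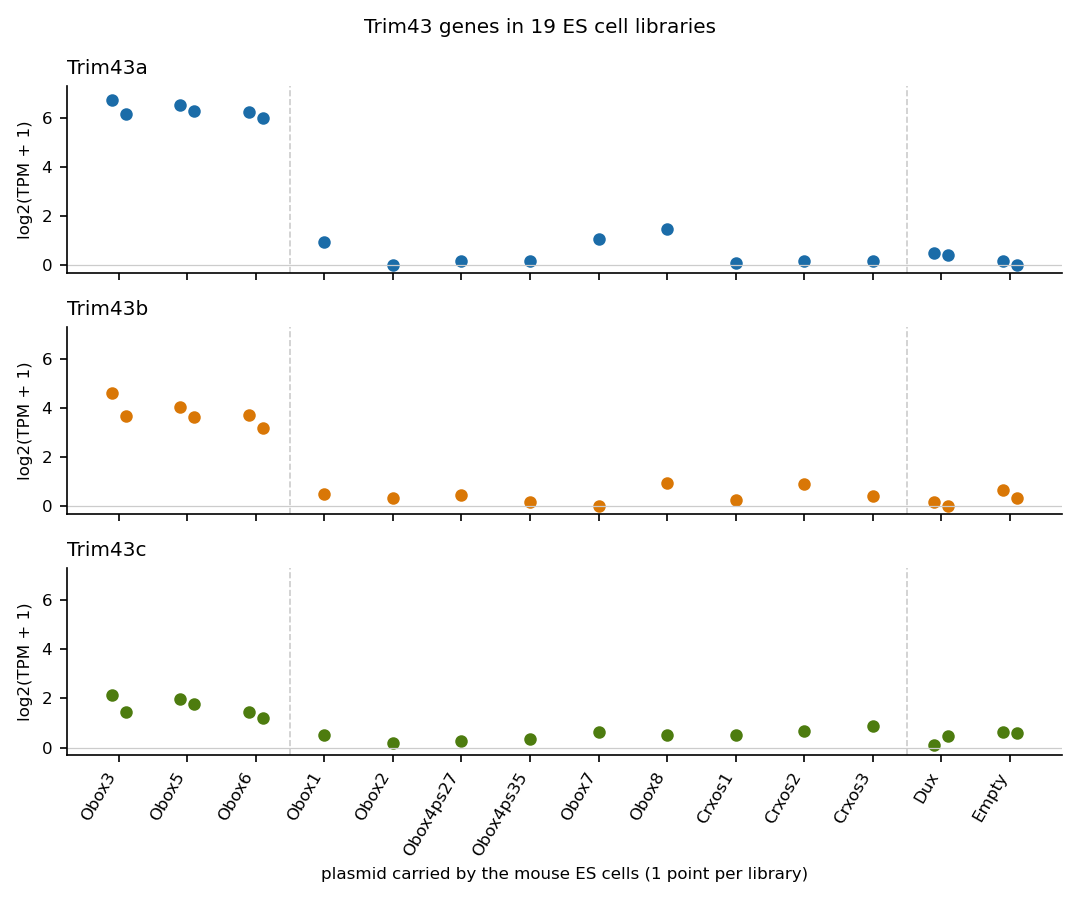
Levels of Trim43a, Trim43b and Trim43c on the log2(TPM + 1) scale (vertical axes) in 19 ES cell libraries, ordered by the plasmid that the cells carried (horizontal axis, 1 point per library). The Obox3, Obox5 and Obox6 libraries left of the first dashed line lie above all other libraries for each gene, with Trim43a highest and Trim43c lowest; Dux and empty-plasmid libraries stand right of the second dashed line.

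Trim43b, the gene farthest along the chromosome, showed the same separation at a lower level. It had 23.6 and 11.9 TPM in ES_Obox3, 15.4 and 11.4 TPM in ES_Obox5, and 12.1 and 8.16 TPM in ES_Obox6, from 79.0 to 227.8 reads per library. ES_Dux had 0.125 TPM in replicate 1 and 0 TPM in the unnumbered library, where a count of 0 allows up to 0.265 TPM, and ES_Empty had 0.594 and 0.272 TPM. The other 13 ES libraries reached at most 0.952 TPM. ES_Obox3 and ES_Obox5 overlapped, as did ES_Obox5 and ES_Obox6.

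Trim43c, which lies between the other two, was the least abundant member in these cells. It had 3.41 and 1.75 TPM in ES_Obox3, 2.97 and 2.40 TPM in ES_Obox5, and 1.70 and 1.33 TPM in ES_Obox6. These values rest on 11.3 to 29.0 reads per library. ES_Dux had 0.0709 and 0.402 TPM and ES_Empty 0.540 and 0.515 TPM, and the 13 libraries without Obox3, Obox5 or Obox6 ran from 0.0709 to 0.816 TPM. Here too the 2 sets of libraries did not overlap, but the gap from 0.816 to 1.33 TPM was small against the counting error of so few reads. The limits given for a count of 0 cover counting error only, since reads were not counted by molecule.

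Set against Dux, the difference was largest for Trim43a and smallest for Trim43c. On the log2(TPM + 1) scale, which understates differences of low genes, Trim43a averaged 6.43 ± 0.40 in ES_Obox3, 6.40 ± 0.16 in ES_Obox5 and 6.13 ± 0.16 in ES_Obox6, against 0.47 ± 0.05 in ES_Dux (SD, n = 2 each). The differences in mean were 5.96, 5.92 and 5.65 for Trim43a under Obox3, Obox5 and Obox6. For Trim43b they were 4.07, 3.75 and 3.37. For Trim43c they were 1.51, 1.58 and 1.03. The 3 differences of each gene share the same ES_Dux libraries. ES_Dux had lower TPM for most genes, with a median over all genes tested of -0.97 against ES_Empty, where ES_Obox3 had -0.42, ES_Obox5 -0.20 and ES_Obox6 -0.09. After median-ratio scaling Trim43a stood at 92.0 and 92.0 TPM in ES_Obox3 and 74.3 and 70.0 TPM in ES_Obox5. It stood at 55.9 and 53.4 TPM in ES_Obox6 and 0.873 and 0.665 TPM in ES_Dux. On that scale ES_Obox3 and ES_Obox5 no longer overlapped, and the difference of Trim43c from ES_Dux fell to 0.63 under Obox6.

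The Dux libraries held high levels of other 2-cell-stage transcripts. Zscan4d, a 2-cell-stage gene that Dux switches on, stood at 1037 and 1232 TPM in ES_Dux, while Trim43a stayed under 0.5 TPM in both. In the 6 Obox3, Obox5 and Obox6 libraries Zscan4d ran from 0.0298 to 1.33 TPM, and in ES_Empty it had 0.0591 and 0.0451 TPM. The highest Zscan4d level outside ES_Dux was 3.36 TPM, in the ES_Crxos2 library. Trim43a and Zscan4d were each high in a different set of libraries, and none of the 19 had both above 5 TPM. The members were chosen as high under Obox and near 0 under Dux. Low Trim43a in ES_Dux therefore follows from the choice and is a description only. In ES_Dux, Duxf3, the gene row that takes Dux reads, stood at 1548 and 1979 TPM.

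**Figure D2:**
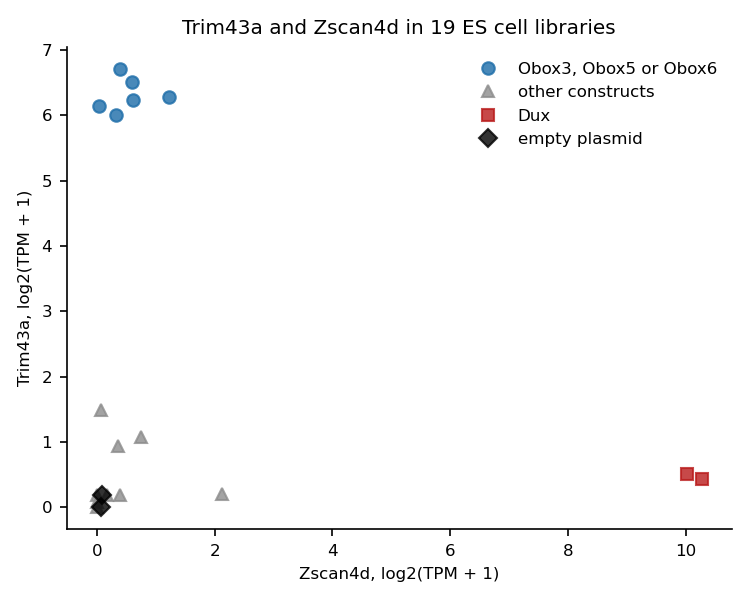
Trim43a (vertical axis) against Zscan4d (horizontal axis), both as log2(TPM + 1), with 1 point for each of 19 ES cell libraries. Trim43a was chosen as high under Obox and near 0 under Dux. The Obox3, Obox5 and Obox6 libraries (blue circles) sit at 63.6 to 103.9 TPM of Trim43a with little Zscan4d, the Dux libraries (red squares) at 1037 and 1232 TPM of Zscan4d with little Trim43a, and empty-plasmid and other libraries near 0 for both.

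Among the 9 constructs with a single library the family stayed low, although each transfected gene stood at 1243 TPM or more. ES_Obox8 had the most Trim43a, at 1.81 TPM from 17.5 reads, with Obox8 itself at 2465 TPM. ES_Obox7 followed with 1.11 TPM from 5.0 reads, and ES_Obox1 with 0.913 TPM from 5.5 reads. The ES_Obox7 library also held 41.9 TPM of Obox3 and its copies. Trim43a had 0 TPM in ES_Obox2, where a count of 0 allows up to 0.455 TPM, and at most 1.0 read in each of the Obox4ps27, Obox4ps35, Crxos1, Crxos2 and Crxos3 libraries. Trim43b ran from 0 TPM in ES_Obox7 to 0.952 TPM in ES_Obox8, and Trim43c from 0.151 TPM in ES_Obox2 to 0.816 TPM in ES_Crxos3. These differences between single libraries have no replicate check. Over all 3 members the sum was 73.1 to 130.9 TPM in the 6 Obox3, Obox5 and Obox6 libraries, 0.418 to 3.17 TPM in the single libraries and 0.623 to 1.27 TPM in ES_Dux and ES_Empty together. Obox6 itself had 2031 and 1959 TPM in ES_Obox6, and Obox5 had 970.7 and 933.3 TPM in ES_Obox5. These are TPM of different genes, each divided by its own gene length, so they do not rank the constructs by amount. Whether Trim43a follows the amount of the transfected transcript was not tested.

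In late 2-cell embryos all 3 members were abundant, and the SCNT embryos given EGFP had less than the other groups. Trim43a stood at 79.5 and 89.7 TPM in SCNT_Obox3_L2C and at 30.9 and 52.1 TPM in SCNT_EGFP_L2C, with 89.5 and 79.2 TPM in ICSI_L2C. Trim43b stood at 140.1 and 117.7 TPM in SCNT_Obox3_L2C and at 45.3 and 61.5 TPM in SCNT_EGFP_L2C, with 147.5 and 129.1 TPM in ICSI_L2C. Trim43c stood at 47.8 and 50.8 TPM in SCNT_Obox3_L2C and at 21.1 and 25.5 TPM in SCNT_EGFP_L2C, with 48.0 and 38.6 TPM in ICSI_L2C. For each gene both SCNT_EGFP_L2C libraries lay below all 4 libraries of the other groups, and SCNT_Obox3_L2C overlapped with ICSI_L2C. How many of all genes show this order was not counted, so it is not shown to be particular to the members. The median log2 fold change over all genes was -0.20 for SCNT_EGFP_L2C minus ICSI_L2C and -0.03 for SCNT_Obox3_L2C minus SCNT_EGFP_L2C. In bulk libraries, fewer cells carrying a transcript and less of it per cell cannot be told apart.

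**Figure D3:**
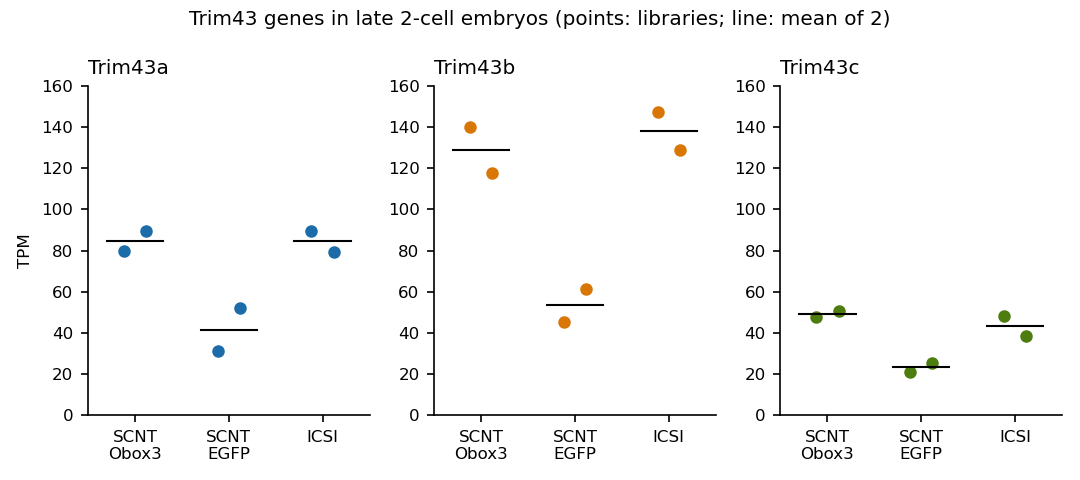
TPM (vertical axes, from 0) of Trim43a, Trim43b and Trim43c in late 2-cell embryos of the SCNT Obox3, SCNT EGFP and ICSI groups (horizontal axes), with 1 point per library and a line at the mean of 2. The SCNT EGFP points lie at 30.9 to 52.1, 45.3 to 61.5 and 21.1 to 25.5 TPM, below both other groups in each panel.

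The mean level of each member was higher in SCNT embryos given Obox3 than in those given EGFP, but no member passed the threshold. A gene was called where limma, with Benjamini-Hochberg adjustment over 18252 genes, gave an adjusted p under 0.05 and the log2 fold change was 1 or more in size. The log2 fold change was 1.05 for Trim43a (SE 0.26, adjusted p = 0.121), 1.27 for Trim43b (SE 0.209, adjusted p = 0.0834) and 1.05 for Trim43c (SE 0.187, adjusted p = 0.0864), each higher in 2 of 2 libraries. The unadjusted limma p was 0.00571, 0.000681 and 0.00103 in that order. So 0 of 3 members were called, where the background of genes called higher was 0.11% (20 genes) and of genes called lower 0.0438% (8 genes), with 3294 genes at an unadjusted p under 0.05. After median-ratio scaling Trim43b passed (log2 fold change 1.27, adjusted p = 0.046), and Trim43a (adjusted p = 0.0704) and Trim43c (adjusted p = 0.0521) did not, with 1.19% of all genes called higher and 0.164% lower on that scale.

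SCNT embryos given EGFP were lower than ICSI embryos in 2 of the 3 members, with each of their libraries below each ICSI library. Trim43b fell by 1.37 on the log2 scale (SE 0.209, limma adjusted p = 0.0073) and Trim43a by 1.05 (SE 0.26, limma adjusted p = 0.0316). Trim43c had a log2 fold change of -0.86 (SE 0.187, limma adjusted p = 0.0207), short of the fold limit. Of all genes tested in this comparison 12.5% were called lower and 4.8% higher. The median log2 fold change over all genes was -0.20, and 32 of 40 tested 2-cell-stage genes were called lower. With a library left out that list count ran from 19 of 35 tested (without ICSI_L2C replicate 1) to 35 of 40 (without SCNT_EGFP_L2C replicate 2), and it was 21 without SCNT_EGFP_L2C replicate 1. After scaling, which gave 8.14% of genes called lower and 6.62% higher, Trim43b kept its call (-1.10, adjusted p = 0.0136). Trim43a lost its call after scaling (-0.78, adjusted p = 0.0512), with no filter on low values (adjusted p = 0.0812), without SCNT_EGFP_L2C replicate 1 (-0.68, adjusted p = 0.0886), without ICSI_L2C replicate 1 (-0.96, adjusted p = 0.114) and without ICSI_L2C replicate 2 (-1.14, adjusted p = 0.0894).

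Between SCNT embryos given Obox3 and ICSI embryos no difference was detected in the members. The log2 fold change was 0.0036 for Trim43a (95% interval -0.62 to 0.63, limma adjusted p = 0.996), -0.10 for Trim43b (-0.60 to 0.40, limma adjusted p = 0.776) and 0.19 for Trim43c (-0.26 to 0.64, limma adjusted p = 0.533). Over the 3 genes the intervals reach from -0.62 to 0.64, so differences of that size are not shut out at this number of libraries. Of all genes 6.31% were called lower and 2.8% higher, and 5540 genes had an unadjusted p under 0.05. After scaling 3.74% were called lower and 4.12% higher, and no member was called. The median over all genes before scaling was -0.22, and 23 of 40 tested 2-cell-stage genes were called lower. That list count fell to 12 and 15 without SCNT_Obox3_L2C replicate 1 or 2, to 6 and 9 of 35 tested without ICSI_L2C replicate 1 or 2, and to 14 with no filter on low values. The 3 embryo comparisons share libraries.

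**Figure D4:**
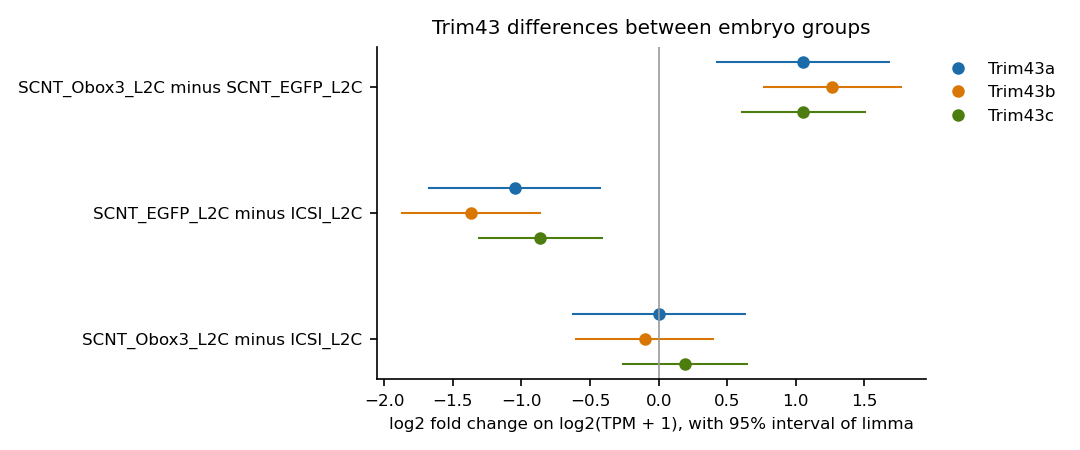
Log2 fold changes of Trim43a, Trim43b and Trim43c on the log2(TPM + 1) scale (horizontal axis; points with 95% intervals of limma) for 3 comparisons of late 2-cell groups (vertical axis). The points lie at 1.05 to 1.27 for SCNT Obox3 minus EGFP, at -1.37 to -0.86 for SCNT EGFP minus ICSI and within 0.2 of 0 for SCNT Obox3 minus ICSI.

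Other transcripts of these embryo groups did not all follow the members. Zscan4d had 5.47 and 5.38 TPM in SCNT_Obox3_L2C, 0.319 and 0.689 TPM in SCNT_EGFP_L2C, and 65.5 and 28.0 TPM in ICSI_L2C, so that unlike Trim43a it was lower in both SCNT_Obox3_L2C libraries than in either ICSI_L2C library. Obox6, which was not injected, had 135.7 and 129.7 TPM in SCNT_Obox3_L2C, 48.1 and 78.6 TPM in SCNT_EGFP_L2C, and 182.5 and 176.6 TPM in ICSI_L2C. Obox5 had 44.9 and 55.8 TPM in SCNT_Obox3_L2C, 41.3 and 67.7 TPM in SCNT_EGFP_L2C, and 146.2 and 177.3 TPM in ICSI_L2C. Duxf3 stayed under 5 TPM in all 6 embryo libraries. The 10 oocyte markers summed to 419.7 to 436.2 TPM in SCNT_Obox3_L2C, 496.2 to 541.9 TPM in SCNT_EGFP_L2C and 632.6 to 694.2 TPM in ICSI_L2C, and their part in the result was not tested. The 10 cumulus cell markers summed to 18.2 to 19.5 TPM in SCNT_Obox3_L2C, 9.67 to 12.7 TPM in SCNT_EGFP_L2C and 23.5 to 27.0 TPM in ICSI_L2C. In each group 1 of 10 was at or above 1 TPM in both libraries. At 0 in both libraries were Ptx3 alone in SCNT_Obox3_L2C, Ptx3 and Col1a2 in SCNT_EGFP_L2C, and Ptx3, Fst and Col1a2 in ICSI_L2C. The part of cumulus cell RNA in the result was not tested. The 5 fibroblast markers summed to at most 0.869 TPM.

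The make-up of the family differed between ES cells and embryos. In the 6 ES libraries with Obox3, Obox5 or Obox6, Trim43a gave 79.4% to 87.0% of the summed TPM of the 3 members, Trim43b 11.2% to 18.0% and Trim43c 1.82% to 2.73%. In the 6 embryo libraries Trim43b was the main member at 44.2% to 52.4%, with Trim43a at 29.7% to 37.5% and Trim43c at 15.6% to 21.7%. The ratio of Trim43a to Trim43b was 4.40 to 7.80 in those ES libraries and 0.568 to 0.847 in embryos, with no overlap. The embryo values include SCNT_Obox3_L2C, where Trim43b stayed above Trim43a in both libraries. ES and embryo tables were normalised separately and no test was run across them, but each ratio is taken within a library. The split of shared reads applies to both.

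**Figure D5:**
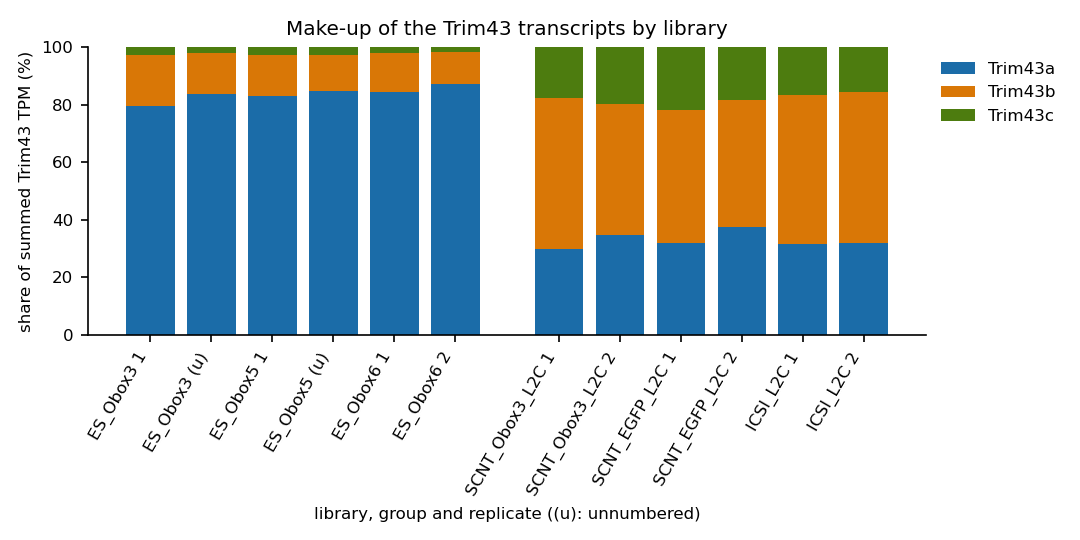
Share of Trim43a, Trim43b and Trim43c in the summed TPM of the 3 genes (vertical axis, percent) in the 6 ES libraries given Obox3, Obox5 or Obox6 and the 6 late 2-cell libraries (horizontal axis). Trim43a fills 79.4% to 87.0% of each ES bar, whereas Trim43b is the tallest part of every embryo bar.

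Over the 19 ES libraries the members followed each other, with Pearson's r of log2(TPM + 1) at 0.978 for Trim43a and Trim43b, 0.919 for Trim43a and Trim43c and 0.943 for Trim43b and Trim43c. The points fall into 6 high and 13 low libraries, so these values mostly describe that separation and are given without a p. Of 8350 genes that reached 10 TPM in some ES library, the most like Trim43a were Fmo1, a flavin-containing monooxygenase (r = 0.983), Larp1b, a La-related RNA-binding protein (0.978), Gpr161, a receptor of the primary cilium (0.974), Gm48143 (0.968) and Eva1a, a regulator of autophagy (0.967). Fmo1, Larp1b and Gpr161 also led the list for Trim43b, with 0.989, 0.986 and 0.976. For Trim43c the leaders were 0610005C13Rik (0.964), Slc19a3, a thiamine transporter (0.956), and Larp1b (0.955). Fmo1 ran from 4.59 to 12.3 TPM in the Obox3, Obox5 and Obox6 libraries and from 0 to 0.195 TPM in the other 13. Larp1b ran from 11.3 to 20.9 TPM in those 6 and from 0.715 to 2.50 TPM in the other 13. Of these 7 genes 5 had a promoter window, of which 1, Gpr161, held TAATCC. Gpr161 had 2 windows. Of all 27025 genes with a window, 8.14% held the motif in some window, and 5 genes are too few to set against that share.

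The genes most like the members in ES cells did not all behave alike in embryos. Larp1b had 52.1 and 47.3 TPM in SCNT_Obox3_L2C and 17.8 and 16.7 TPM in SCNT_EGFP_L2C (log2 fold change 1.47, SE 0.156, limma adjusted p = 0.0456), a call that was lost in several other fits. The adjusted p of Larp1b was 0.0374 after scaling and 0.0444 with a pseudocount of 0.1, but 0.184 with no filter, 0.102 with a replicate block, 0.0866 with only the 4 libraries compared and 0.0832 to 0.203 without any 1 of the 4 libraries. It had 116.8 and 125.5 TPM in ICSI_L2C, above both SCNT groups. Slc19a3 had 168.8 and 158.6 TPM in SCNT_Obox3_L2C and 54.2 and 92.4 TPM in SCNT_EGFP_L2C (1.20, SE 0.268, limma adjusted p = 0.108), and Eva1a 14.3 and 13.1 TPM in SCNT_Obox3_L2C and 6.44 and 5.52 TPM in SCNT_EGFP_L2C (1.07, SE 0.212, limma adjusted p = 0.0944). Fmo1 was at most 0.0569 TPM in every embryo library and Gm48143 had a log2 fold change of -0.67 (SE 0.233, limma adjusted p = 0.211). Gpr161 had 0.71 (SE 0.264, limma adjusted p = 0.233) and 0610005C13Rik 0.54 (SE 0.331, limma adjusted p = 0.438). For SCNT_EGFP_L2C minus ICSI_L2C, Larp1b had -2.74 and Slc19a3 -1.07 (limma adjusted p = 0.000978 and 0.0331). There Gpr161 had -0.69, Eva1a -0.61, 0610005C13Rik -0.46 and Gm48143 0.18 (limma adjusted p = 0.108, 0.0851, 0.363 and 0.615).

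The other Trim genes give a background for the family name. Against ES_Empty, 0 of 32 tested other Trim genes were called higher in ES_Obox3, ES_Obox5 or ES_Obox6, where 4.67%, 4.79% and 2.39% of all genes were, and 7, 5 and 0 were called lower, where 13.6%, 5.47% and 1.99% of all genes were (limma, with 19, 11 and 9 of the 32 at an unadjusted p under 0.05). Against shares this low, 0 of 32 is no result about these genes. Of all 20355 genes tested in the same 3 fits, 8853, 6115 and 4049 had an unadjusted limma p under 0.05. With a pseudocount of 0.1, Trim75 was called higher in ES_Obox3 (log2 fold change 2.51, limma adjusted p = 0.0282) and in ES_Obox5 (2.89, limma adjusted p = 0.0306). Trim8 had 18.2 and 14.0 TPM in ES_Obox3 and 77.6 and 75.5 TPM in ES_Empty (log2 fold change -2.19, SE 0.192, limma adjusted p = 0.000231). In ES_Dux 1 other Trim gene was called higher and 22 lower, where 4.12% and 44.4% of all genes were. The gene called higher was again Trim75, at 4.25 and 3.56 TPM in ES_Dux and 0 in both ES_Empty libraries. After median-ratio scaling the counts of other Trim genes called lower became 4, 1, 0 and 2 of 30 in ES_Obox3, ES_Obox5, ES_Obox6 and ES_Dux, where 3.74%, 2.33%, 1.25% and 1.87% of all genes were. Those called higher became 0, 0, 0 and 3, where 7.95%, 6.22%, 3.0% and 8.87% of all genes were. In embryos 0 of 30 were called for SCNT_Obox3_L2C over SCNT_EGFP_L2C, where 0.11% of all genes were called higher and 0.0438% lower. An unadjusted limma p under 0.05 was found for 5 of the 30, and for 3294 of all 18252 genes. Between SCNT_EGFP_L2C and ICSI_L2C, 8 of 30 were called lower in SCNT_EGFP_L2C, where 12.5% of all genes were. That count was 4 of 31, with 1 called higher, after scaling, and with a library left out it was 3 without ICSI_L2C replicate 2, 4 without SCNT_EGFP_L2C replicate 1 and 8 otherwise. Among the 8 was Trim13, at 9.35 and 13.6 TPM in SCNT_EGFP_L2C and 96.6 and 83.9 TPM in ICSI_L2C.

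Of 45 RefSeq genes within 500 kb of a member on chromosome 9, 31 were in the tables, and 9 passed the filter on low values in ES cells and 12 in embryos. In ES_Obox3 and in ES_Obox5 the call was Nt5e, a cell-surface nucleotidase, which was lower (1 of 9 in each, where 13.6% and 5.47% of all genes were). Nt5e had 0.436 and 0.300 TPM in ES_Obox3 and 0.244 and 0.413 TPM in ES_Obox5, with 1.94 and 1.81 TPM in ES_Empty. After scaling Nt5e was not called, and Zfp949, a zinc finger gene, was called higher in ES_Obox3 (log2 fold change 1.11, limma adjusted p = 0.000635) and in ES_Obox5 (1.07, limma adjusted p = 0.0011). That was 1 of 9 in each, where 7.95% and 6.22% of all genes were called higher on that scale. Against these shares, 1 of 9 is no result about the neighbours. Nt5e was also not called in ES_Obox5 without any 1 of the 4 libraries, nor in ES_Obox3 without ES_Empty replicate 1 or 2. In ES_Obox6 0 of 9 were called, where 2.39% of all genes were called higher and 1.99% lower. An unadjusted limma p under 0.05 was found there for 1 of the 9, and for 4049 of all 20355 genes. In ES_Dux 5 of 9 were called lower, where 44.4% of all genes were, and of the 5 genes 0 stayed called after scaling. In embryos 0 of 12 were called for SCNT_Obox3_L2C over SCNT_EGFP_L2C, where 0.11% of all genes were called higher and 0.0438% lower. An unadjusted limma p under 0.05 was found for 4 of the 12, and for 3294 of all 18252 genes. Zfp949 was called lower at 6.98 and 11.3 TPM in SCNT_EGFP_L2C and 10.0 and 9.99 TPM in SCNT_Obox3_L2C, with 21.8 and 30.6 TPM in ICSI_L2C. Gm19498 was called higher at 1.88 and 1.77 TPM in SCNT_EGFP_L2C and 3.47 and 1.91 TPM in SCNT_Obox3_L2C, with 0.407 and 0 TPM in ICSI_L2C. Against ICSI_L2C, each SCNT group thus had 1 of 12 neighbours called lower and 1 of 12 higher. Of all genes, 12.5% were called lower and 4.8% higher in SCNT_EGFP_L2C, and 6.31% and 2.8% in SCNT_Obox3_L2C. With a library left out Gm19498 was called in none of the 4 fits of either comparison, and Zfp949 in 2 of 4 fits for SCNT_EGFP_L2C and 0 of 4 for SCNT_Obox3_L2C. With no filter on low values only Zfp949 in SCNT_EGFP_L2C kept its call.

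Of 39 tested 2-cell-stage genes, a list that does not hold the members, 16 were called higher in ES_Obox3, 19 in ES_Obox5, 7 in ES_Obox6 and 36 in ES_Dux over ES_Empty, where 4.67%, 4.79%, 2.39% and 4.12% of all genes were. The list holds Duxf3, the transfected gene of ES_Dux; without it 35 of 38 were called there, while Trim43a stayed under 0.5 TPM. The 7 in ES_Obox6 became 2 to 4 with a library left out, 15 with a pseudocount of 0.1 and 3 with no filter. Of the 11 list genes tested with only the 4 libraries compared, 1 was called, and 0 with a replicate block. Of the list genes, Chit1, a chitinase, had 34.2 and 24.3 TPM in ES_Obox3 and 3.13 and 3.22 TPM in ES_Obox6, with 0 in both ES_Empty libraries. Pramel7 had 38.6 and 24.7 TPM in ES_Obox3 and 0.126 and 0.0961 TPM in ES_Empty. The list summed to 129.7 to 190.3 TPM in ES_Obox3, 167.9 to 188.4 TPM in ES_Obox5, 71.4 to 74.8 TPM in ES_Obox6 and 11535 to 12942 TPM in ES_Dux (9987 to 10963 TPM without Duxf3), with 42.8 to 60.9 TPM in ES_Empty. Most of the ES_Empty sums came from Eif1a, a gene of the list, at 49.2 and 40.3 TPM. Of 41 list genes 1 reached 1 TPM in both ES_Empty libraries. Eif1a was called lower in ES_Dux, at 8.37 and 8.74 TPM, so the sums understate how far the rest of the list differs from ES_Empty there. In ES_Obox6 the summed list was less than in either other Obox group, while Trim43a stood at 74.7 and 63.6 TPM. In embryos 0 of 40 genes of the list were called for SCNT_Obox3_L2C over SCNT_EGFP_L2C, where 0.11% of all genes were called higher and 0.0438% lower. Against shares this low, 0 of 40 is no result about the list. An unadjusted limma p under 0.05 was found for 19 of the 40, and for 3294 of all 18252 genes. The median log2 fold change of the list was 0.64, where the median over all genes was -0.03.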

How the data were processed

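Total RNA was sequenced from 19 ES cell and 6 late 2-cell embryo libraries with a stranded SMART-seq kit, per the labels' protocols; the other 63 samples of the series were not analysed here. Alignment and counting tools listed in the submitters' processing notes include HISAT2 and featureCounts 1.6.5, with mm10 as the build; whether strand was used in counting is not given in the sources used here. The authors deposited a TPM value for each gene and library, and each column sums to 1000000. From them log2(TPM + 1) was tested with limma 3.58.1 (trend and robust moderation) in R 4.3.3 over genes that reached 1 TPM in 2 or more libraries of the fit, in 1 fit of 6 embryo libraries and 1 of the 10 ES libraries in groups of 2. P-values were adjusted over all genes tested, and calls needed an adjusted p under 0.05 and a log2 fold change of 1 or more in size. The fit was also run on simulated data with changes larger than those of the members. That run does not show how often changes of the members' size are found. Reads per member were recovered from the TPM of 1 read on short RNA genes and a solved length of each member. These lengths were 1984 bases for Trim43a, 2262 for Trim43b and 1990 for Trim43c. Each was the shortest tried at which all reads were whole or multiples of a twelfth within 0.002. The match to twelfths was set by that choice and is no check on the reads. All reads and limits for a count of 0 rest on these lengths, and no count model was run. The members, lists and tests were chosen with earlier results of these data known. Genes of like pattern were named by rank of Pearson's r with each member, and list examples by the largest called changes. Same-numbered libraries deviated together with r of at most 0.067, so numbers were not used as pairs. Alternatives were another pseudocount of 0.1, median-ratio scaling, no filter, only the libraries compared, a replicate block and leaving out each library.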

Additional observations from a re-analysis of the deposited data

How the results depend on the processing

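Depth limits Trim43c in ES cells to at most 29.0 reads per library, and groups of 2 libraries limit every test; where a library is left out, the lone one of its group is assumed to vary like the others. The causes of the changes below were not tested. For SCNT_Obox3_L2C minus SCNT_EGFP_L2C, 28 genes were called, and 247 after median-ratio scaling, 0 with no filter on low values, 0 with only the 4 libraries compared, 0 with a replicate block and 0 to 5 with a library left out; Trim43b passed after scaling at 1.27. For SCNT_EGFP_L2C minus ICSI_L2C, 3164 genes were called and 1475 to 2691 with a library left out; Trim43a lost its call at -0.78 after scaling, at -1.05 with no filter and in 3 of 4 fits with a library left out, in a range of -1.42 to -0.68 of which the -1.42, without SCNT_EGFP_L2C replicate 2, kept its call (adjusted p = 0.0132), and Trim43c, in a range of -1.02 to -0.71, passed without ICSI_L2C replicate 2. For SCNT_Obox3_L2C minus ICSI_L2C, 1663 genes were called, 718 with no filter and 404 to 605 with a library left out. There Trim43a turned to -0.082 and -0.083 with a library left out, in a range of -0.083 to 0.091, and Trim43b turned to 0.17 after scaling and to 0.022 without SCNT_Obox3_L2C replicate 2, in a range of -0.23 to 0.022, none of them past the threshold. The replicate block left the calls of the 3 members in embryos as they were (Trim43b 1.27, adjusted p = 0.102, for SCNT_Obox3_L2C minus SCNT_EGFP_L2C).

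In ES cells over ES_Empty, other Trim genes called numbered 4 after scaling in ES_Obox3 (3 to 8 with a library left out), 1 after scaling and 2 with no filter in ES_Obox5 (1 to 2), and 5 after scaling in ES_Dux. Neighbours called numbered 0 to 2 with a library left out in ES_Obox3, 2 with a pseudocount of 0.1 and 0 with a library left out in ES_Obox5, and 0 after scaling and 2 to 4 with a library left out in ES_Dux. The 7 genes of the 2-cell-stage list called in ES_Obox6 became 15 with a pseudocount of 0.1, 3 with no filter, 0 with a replicate block, 1 with only the 4 libraries compared and no replicate block (an alternative chosen after seeing the data), and 2 to 4 with a library left out. Differences from ES_Dux with a pseudocount of 0.1 were 7.45, 7.42 and 7.14 for Trim43a, 6.81, 6.48 and 6.06 for Trim43b and 3.12, 3.24 and 2.45 for Trim43c under Obox3, Obox5 and Obox6. After scaling, Trim43a differed by 5.37 under Obox5 and 4.98 under Obox6, Trim43b by 2.99 under Obox6, and Trim43c by 1.22 under Obox5 and 0.63 under Obox6. Without a library the differences stayed between 5.54 and 6.24 for Trim43a, 3.11 and 4.54 for Trim43b and 0.84 and 1.85 for Trim43c.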
